A study of Mus musculus with 12 samples.

Results

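The hair shaft keratins are the type I and type II keratins that build the hard filaments of hair. The 10 genes described here are the type I genes Krt31, Krt33a, Krt33b, Krt34, Krt35 and Krt36 and the type II genes Krt81, Krt83, Krt85 and Krt86, chosen by symbol among 23282 entries counted in mouse skin. All 10 were found and all 10 had enough reads to be tested. In HF + AD skin, Krt34 was at 2.52-fold and Krt31 at 2.20-fold its AD level, with no overlap between the groups, and Krt86 was at 2.20-fold with an overlap. Krt34 and Krt31 passed the test in all 22 alternative fits, and Krt86 in 10 of 21. Which gene the entries Krt86 and Krt83 count could not be settled. Krt33a, Krt33b, Krt35, Krt36, Krt81, Krt83 and Krt85 did not pass the test across all genes, although Krt83, counted in few reads, did not overlap between the groups either.

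Skin RNA was compared between 5 AD mice and 7 HF + AD mice, a group that the labels call AD+OB, to ask what obesity adds to atopic dermatitis-like skin. All were wild-type male C57BL/6J mice that were 5 weeks old when obtained, and all received 0.5% 2,4-dinitrochlorobenzene (DNCB), a hapten that causes contact allergy, on dorsal skin 3 times a week for 6 weeks. AD mice ate normal chow, and HF + AD mice ate a diet with 60 kcal% fat that began 4 weeks before DNCB. The labels name no drug, but the deposited data of the AD+OB group are numbered 4, which in the design text is the HF + AD group that also received GHJGS, a drug, and not the group given distilled water. Whether these mice were treated with it cannot be told from the sources used here, and every HF + AD value below carries this doubt. No skin without DNCB and no HF diet without DNCB was analysed here, and the stage of the hair cycle is not given in the sources used here. The labels number the libraries without saying that each came from a separate mouse, so that p-values measure the spread between libraries, each of which is called a mouse below.

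A hair grows from dividing matrix cells at the base of the follicle, whose daughters move up, stop dividing and fill with keratin as they become the cortex and cuticle of the shaft. A type I (acidic) keratin pairs with a type II (basic) keratin to form each filament, and the genes switch on in an order along the follicle, with Krt35 and Krt85 first, in matrix and precortex, then Krt31, and then the other members in the cortex. Keratin-associated proteins later crosslink the filaments through disulfide bonds. In whole skin, more such cells and more RNA in each cell cannot be told apart.

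The type I genes lie in 1 cluster on chromosome 11, from Krt33a (100011195 to 100016212) through Krt33b, Krt34, Krt31 and Krt35 to Krt36 (100102007 to 100105626), all on the minus strand (GENCODE M21, GRCm38). Krt81, Krt86 and Krt83 lie on chromosome 15 between 101459061 and 101491512. Promoters of 4 members, all of them type I genes, were found in the RefSeq table for GRCm38.p6, and the others were not. The 250 bases before each start site are printed below on the strand of the gene, because Krt31 and Krt34 passed the test whereas their cluster neighbours Krt33b and Krt36 did not. The windows are chr11:100050552-100050801 for Krt31, chr11:100041555-100041804 for Krt34, chr11:100029869-100030118 for Krt33b and chr11:100105627-100105876 for Krt36, all on the minus strand. Capitals mark 3 motifs that were searched on both strands and chosen after the sequences had been seen. These are the TATA box TATAAA, the core CTTTGA bound by LEF1, a factor of Wnt signalling, and the form bound by HOXC13, a regulator of hair keratin genes, which is TTAATN or TTTATN followed by a pair of purines.
Krt31: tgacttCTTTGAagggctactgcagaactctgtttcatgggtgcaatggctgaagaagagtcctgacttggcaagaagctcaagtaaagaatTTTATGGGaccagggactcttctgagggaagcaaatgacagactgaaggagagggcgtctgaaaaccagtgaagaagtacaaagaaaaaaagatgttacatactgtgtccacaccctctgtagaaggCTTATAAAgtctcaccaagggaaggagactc
Krt34: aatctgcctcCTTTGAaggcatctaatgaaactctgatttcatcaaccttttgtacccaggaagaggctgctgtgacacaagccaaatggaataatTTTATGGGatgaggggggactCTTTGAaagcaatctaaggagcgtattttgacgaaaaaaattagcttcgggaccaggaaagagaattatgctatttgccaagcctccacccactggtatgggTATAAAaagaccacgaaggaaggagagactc
Krt33b: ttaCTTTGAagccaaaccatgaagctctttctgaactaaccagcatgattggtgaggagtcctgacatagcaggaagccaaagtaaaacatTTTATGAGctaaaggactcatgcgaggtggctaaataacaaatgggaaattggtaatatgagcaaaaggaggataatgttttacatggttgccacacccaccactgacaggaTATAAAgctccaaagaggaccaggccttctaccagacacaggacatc
Krt36: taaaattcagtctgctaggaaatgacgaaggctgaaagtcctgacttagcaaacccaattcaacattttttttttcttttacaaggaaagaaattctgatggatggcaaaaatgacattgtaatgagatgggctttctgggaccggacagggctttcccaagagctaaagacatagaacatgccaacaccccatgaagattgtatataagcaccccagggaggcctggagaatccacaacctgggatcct

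The promoters of Krt31, Krt34 and Krt33b each held all 3 motifs, and that of Krt36 held none of them in these letters. Counted from the start site, the TATA box began at base -29 in Krt31, -31 in Krt34 and -47 in Krt33b. The HOXC13 form began at -158, -154 and -159, and the CTTTGA core at -244, -240 and -247, with another core in Krt34 at -133. In Krt31 a further HOXC13 form on the opposite strand overlapped the TATA box. Among 32851 promoters of the same length, 12.4% held the TATA box, 13.8% the CTTTGA core, 17.2% the HOXC13 form and 0.998% all of them. A match of letters does not show that a factor binds, and the part of these motifs in the differences between the genes was not tested.

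The authors deposited read counts per gene from libraries primed at mRNA 3′ ends. Totals lay between 9746937 and 11688979 counts in the AD group and between 10726845 and 13462434 in the HF + AD group. Genes with a read numbered 13100 to 15063 in AD mice and 15522 to 16677 in HF + AD mice, with no overlap. Levels are given as CPM, counts scaled to a common library total after TMM normalization. They are not divided by length, so that they are compared between mice and not between genes. Changes are given as log2 fold changes with their standard error (SE) from edgeR's quasi-likelihood test on the counts, with p-values adjusted over 14163 genes and a threshold of 0.05, and the median log2 fold change over these genes was 0.023. The expected skin markers were present in every mouse, among them Krt5 at 2232 CPM or more and Krt14 at 544.3 CPM or more.

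Of the 10 hair shaft keratins, 3 were called higher in HF + AD skin (Krt31, Krt34 and Krt86) and 0 lower, where 9.2% of all genes tested were called, 4.43% as higher and 4.77% as lower. At an unadjusted p under 0.05, 7 members were higher, against 12.3% of all genes, and 0 were lower. DESeq2's Wald test and limma-trend each called 4 members higher and 0 lower, but both also called more genes throughout. Of all 14163 genes tested, in either direction, DESeq2's Wald test called 1945 and limma-trend 1558, against 1303 with edgeR. The exact permutation test on single genes gave p under 0.05 for 5 members, all higher, against 15.2% of all genes higher and 11.4% lower. The fold change was above 0 for 9 of the 10, against 51.7% of all genes, with a median log2 fold change of 0.50. Values of the groups did not overlap for Krt31, Krt34 and Krt83, all higher in HF + AD mice, where 2.9% of all genes tested were higher without overlap and 2.56% lower. Members are neighbours in gene clusters and are used by the same cells, so that they are not independent of each other.

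**Figure D1:**
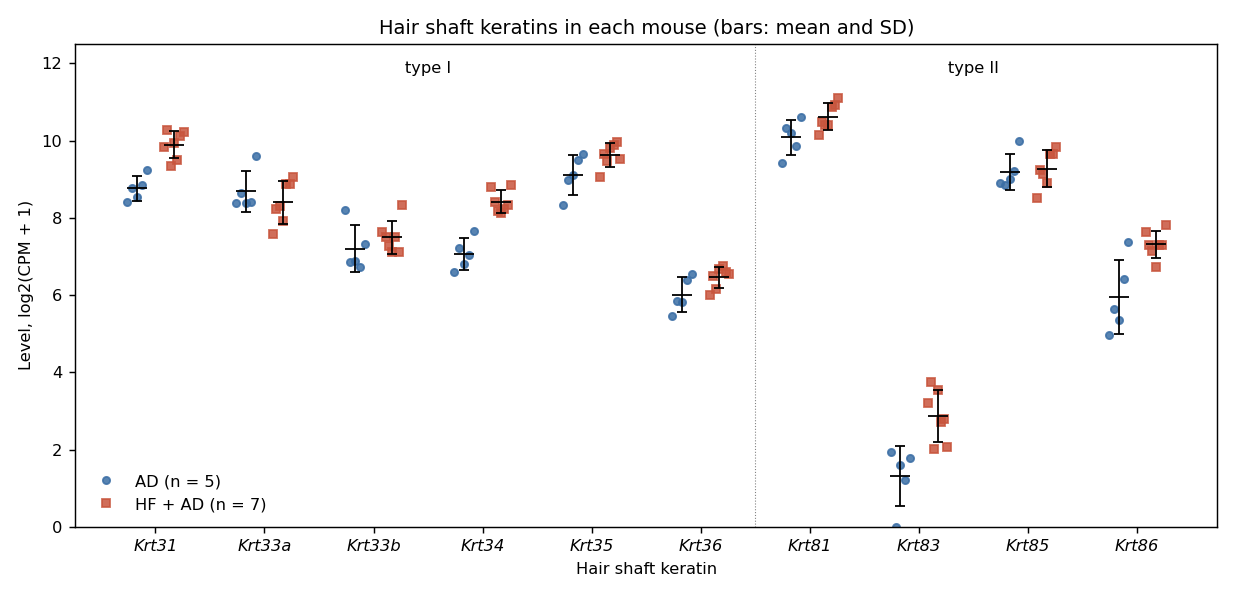
Level of each hair shaft keratin on the log2(CPM + 1) scale in 5 AD mice (circles) and 7 HF + AD mice (squares), with the mean and SD of each group. For Krt31, Krt34 and Krt83 all 7 HF + AD mice lie above all 5 AD mice, and for the other genes the groups overlap.

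Krt31 (chromosome 11, 100046646 to 100050551), a type I keratin of the early cortex, stood at 338.2, 436.7, 368.7, 461.8 and 606.2 CPM in AD mice 1 to 5. In HF + AD mice the lowest value was 650.0, the median 986.9 and the highest 1239 CPM. All 7 HF + AD mice were above all AD mice, the nearest being HF + AD mouse 3 and AD mouse 5. The log2 fold change was 1.14 (SE 0.18, adjusted p = 0.00459). The two-sided exact permutation test on log2(CPM + 1) gave p = 0.00253, the lowest value that 792 ways of splitting 12 mice can give. Krt31 passed the threshold in all 22 alternative fits, with log2 fold changes between 1.02 and 1.29.

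Krt34 (chromosome 11, 100037347 to 100041554), the neighbour of Krt31 and a type I keratin of the cortex, also rose. AD mice 1 to 5 had 96.0, 149.1, 110.0, 129.7 and 202.5 CPM, and HF + AD mice had between 276.3 and 463.3 CPM with a median of 318.6. The lowest HF + AD mouse thus stood above AD mouse 5, the highest of its group. The log2 fold change was 1.33 (SE 0.19, adjusted p = 0.00283, two-sided exact permutation p = 0.00253). In the same 22 alternative fits it was between 1.23 and 1.53, and each of them called it.

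Krt86 (chromosome 15, 101473478 to 101479986), a type II keratin of the cortex, is among the genes altered in monilethrix, an inherited hair fragility. Its levels in AD mice 1 to 5 were 30.5, 48.4, 39.8, 83.7 and 165.8 CPM, so that mouse 5 stood well above the rest. HF + AD mice lay between 104.4 and 224.3 CPM with a median of 155.3. Although 4 of 5 AD mice were below all HF + AD mice, AD mouse 5 was above 5 of the 7. The log2 fold change was 1.13 (SE 0.34, adjusted p = 0.0431), and the two-sided exact permutation test gave p = 0.0152. This call held in 10 of 21 alternative fits, with an adjusted p between 0.00439 and 0.106. It was lost without any 1 of AD mice 1 to 4 or HF + AD mice 1, 2, 5, 6 and 7, and without AD mouse 5 its log2 fold change was 1.69. Which gene the entry counts is in doubt, for the reason given for Krt83 below.

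Krt83 was counted in few reads, from 0 to 31 in the AD group and from 42 to 160 in the HF + AD group. The AD mice had 2.81, 0, 2.02, 1.33 and 2.44 CPM, where a count of 0 allows up to 0.308 CPM in the shallowest library, counting error only. The HF + AD mice had between 3.04 and 12.4 CPM with a median of 5.87, and each of the 7 exceeded the highest AD mouse (two-sided exact permutation p = 0.00253). Its log2 fold change, 2.01 (SE 0.72), missed the threshold (adjusted p = 0.0872). DESeq2's Wald test and limma-trend called it, and the other 18 of 20 alternative fits did not. Fewer genes were detected in every AD library than in any HF + AD library, and the part of this in the difference was not tested. The identity of the entry is also uncertain, since RefSeq (GRCm38.p6) lists Krt83 as an older name of Krt87 and 5430421N21Rik as an older name of Krt83 and of Krt86. The counts list Krt83, Krt86 and 5430421N21Rik as separate entries, and no entry named Krt87 was found. Which gene each of these entries counts, Krt86 included, cannot be settled here. The entry 5430421N21Rik, looked at because of these names after its values were seen, had between 71.2 and 256.5 CPM in AD mice and up to 196.4 CPM with a median of 149.4 in HF + AD mice, at 0.24 on the log2 fold scale (adjusted p = 0.642).

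Krt81, the third type II cortex gene altered in monilethrix along with Krt83 and Krt86, was higher on average with an overlap. It was at 686.5, 1280, 1167, 931.7 and 1546 CPM in AD mice and between 1131 and 2211 CPM, median 1419, in HF + AD mice. AD mouse 5 stood above 4 of the 7 HF + AD mice, and 3 HF + AD mice stood above it. Over all genes tested, its change of 0.52 on the log2 scale (SE 0.20) missed the threshold (adjusted p = 0.109), while the two-sided exact permutation p for this gene alone was 0.0480. Without AD mouse 5, the adjusted p was 0.0495. Summed as 1 entry in case reads of near copies were split, Krt81, Krt83 and Krt86 gave 0.57 on the log2 scale (SE 0.20, adjusted p = 0.0789). Krt81 made up most of this sum, with a mean of 1122 CPM in AD mice against 73.6 for Krt86 and 1.72 for Krt83.

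Krt35 and Krt85, the type I and type II keratins that are expressed first in the follicle, did not pass the test. Krt35 was at 318.8, 499.2, 549.0, 723.7 and 799.3 CPM in AD mice and between 530.8 and 1006 CPM, median 809.5, in HF + AD mice (log2 fold change 0.48, SE 0.20, adjusted p = 0.149). For Krt35, 4 HF + AD mice stood above all AD mice. Krt85 was at 472.6, 461.2, 511.7, 593.3 and 1014 CPM in AD mice and between 364.6 and 909.5 CPM, median 601.6, in HF + AD mice. AD mouse 5 was the highest of all 12 mice and HF + AD mouse 1 the lowest, and the difference was 0.081 on the log2 scale (SE 0.23, adjusted p = 0.870). This sign turned with the replicate number as a block (-0.10) and when AD mouse 2 (-0.0029) or HF + AD mouse 7 (-0.028) was left out, so that no direction can be given for Krt85.

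Krt36, found in the hair cortex and also in the papillae of the tongue, did not pass the test either. It was at 42.6, 56.4, 55.3, 83.0 and 93.1 CPM in AD mice and between 63.1 and 107.5 CPM, median 92.9, in HF + AD mice, a difference of 0.42 on the log2 scale (SE 0.20, adjusted p = 0.194). The ranges overlapped, with 3 HF + AD mice above all AD mice.

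The similar type I genes Krt33a and Krt33b did not pass the test. Krt33a was at 334.1, 397.4, 334.1, 337.8 and 775.5 CPM in AD mice, and at 189.2 to 529.4 CPM, median 313.6, in HF + AD mice. Of the latter, 4 lay below all AD mice, but AD mouse 5 stood above all others, and the log2 fold change of -0.28 (SE 0.26, adjusted p = 0.556) became 0.047 without it and between -0.41 and -0.17 without any other mouse. Krt33b was at 295.0, 115.3, 115.9, 105.2 and 158.7 CPM in AD mice, where mouse 1 and not mouse 5 was highest, and at 136.9 to 321.7 CPM, median 181.3, in HF + AD mice (log2 fold change 0.24, SE 0.26, adjusted p = 0.615). Summed as 1 entry, they gave -0.12 on the log2 scale (SE 0.22, adjusted p = 0.786). For 15 hair keratin genes, stretches of 50 bases in the last 500, where this kit reads, were searched in the others' whole annotated transcripts. Only the pair Krt31 and Krt33b shared any, at 27 of 451 positions from Krt31 and 13 of 451 from Krt33b. Krt31 and Krt33b were not summed, and Krt85 and 5430421N21Rik were not among the genes searched. How reads with several matches were treated is not given in the sources used here.

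**Figure D2:**
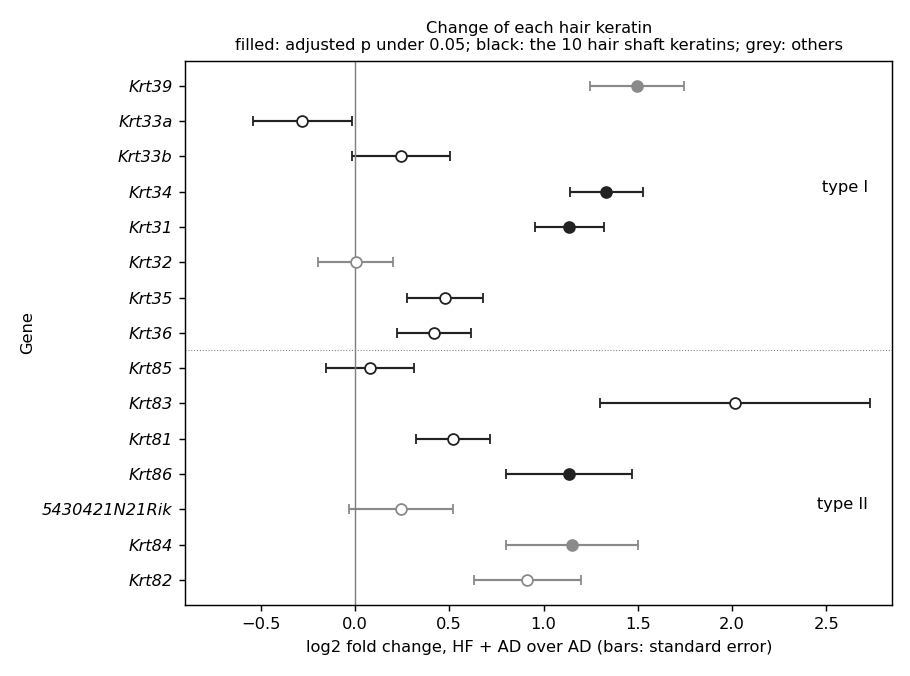
Log2 fold change of HF + AD over AD for each tested hair keratin, with its standard error. Krt31, Krt34 and Krt86 among the 10 hair shaft keratins (black), and Krt39 and Krt84 among the others (grey), passed an adjusted p of 0.05 (filled), and Krt83 has the widest error.

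Together the 10 genes summed to 2617, 3444, 3253, 3451 and 5363 CPM in AD mice 1 to 5. In HF + AD mice the sum was between 4038 and 6670 CPM with a median of 5146. AD mouse 5 stood above 4 of the 7 HF + AD mice, and the other 4 AD mice stood below all 7. The ratio of the means was 1.43, or 1.62 without AD mouse 5, for type I genes 1.52 and for type II genes 1.34. Type I genes made up 50.4% ± 3.28 (SD, n = 5) of the sum in AD mice and 53.6% ± 3.85 (SD, n = 7) in HF + AD mice, a difference of less than 1 SD. These sums are descriptions without a test, since the genes were chosen with results known.

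The make-up of the sum differed without overlap in 2 genes. Krt34 made up between 3.38 and 4.33% of it in AD mice and between 5.28 and 10.9% in HF + AD mice, and Krt33a made up between 9.79 and 14.5% and between 4.69 and 8.51%, respectively, neither with an overlap. The share of Krt31 was 11.3 to 13.4% in AD mice and 13.1 to 24.1% in HF + AD mice, with an overlap. The shares of Krt85 lay between 13.4 and 18.9% in AD mice and between 9.03 and 14.4% in HF + AD mice. The share of Krt35 was 15.9% ± 3.30 (SD, n = 5) and 15.7% ± 2.82 (SD, n = 7), and that of Krt81 was 31.0% ± 5.13 (SD, n = 5) and 30.8% ± 2.40 (SD, n = 7). Since shares add up to the whole, a higher share of 1 gene lowers that of the others.

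**Figure D3:**
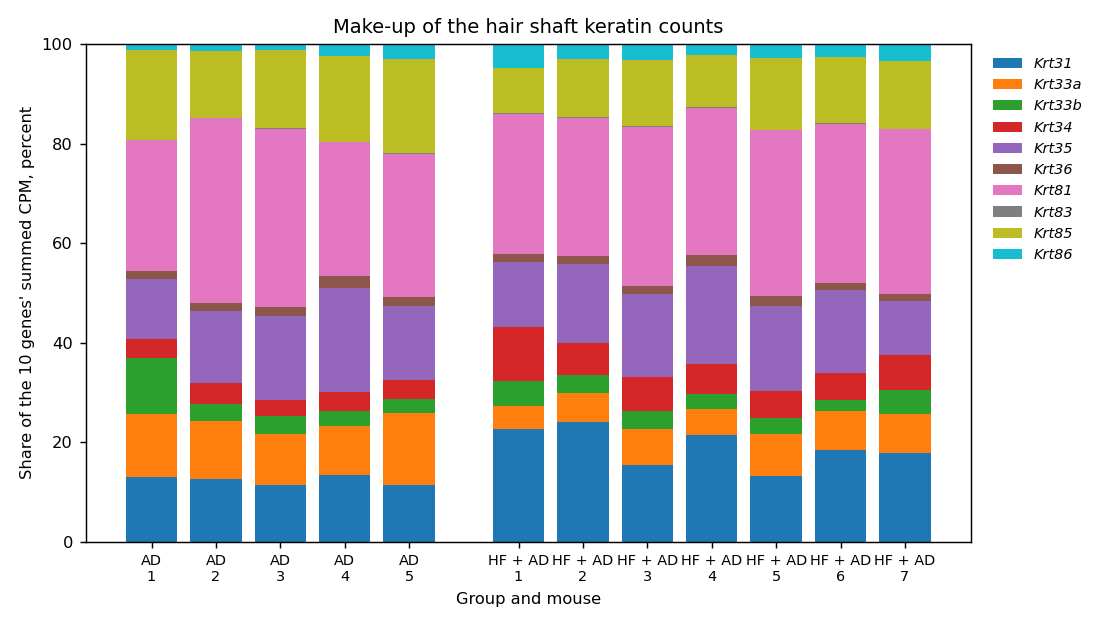
Share of each of the 10 genes in their summed CPM, in percent, for 5 AD mice (left) and 7 HF + AD mice (right). The segment of Krt34 is larger and that of Krt33a smaller in every HF + AD mouse than in any AD mouse, and that of Krt31 is larger in 6 of the 7 than in any AD mouse.

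Within groups, some pairs of the genes varied together over the 12 mice and others did not. After the mean of each group was subtracted, Pearson's r over 45 pairs of members had a median of 0.46 and lay between -0.58 and 0.96, given as a description, since all values come from the same libraries and scaling. The highest were Krt33a with Krt85 (0.96), Krt35 with Krt36 (0.94) and Krt34 with Krt86 (0.86), and the lowest was Krt33b with Krt35. Krt31 correlated with Krt34 at 0.67. The genes outside the members that followed their mean level most closely in the same way were Mttp (r = 0.91), Rpl28, Crip3, 5430421N21Rik, 4930481A15Rik, Cd164l2, Rpl14, Krtap10-10, Krtap1-5 and Gfra3 (r = 0.88), with adjusted p-values from 0.073 to 0.958 between the groups. They are the top of a ranking of all other genes tested over 12 mice, where high values of r arise by selection. Whether any of them follows the hair keratins beyond this was not tested.

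Among hair keratins that are not members, Krt39 and Krt84 were also higher. Krt39, a type I keratin of the cortex, rose from 10.3 to 29.8 CPM in AD mice to 40.9 to 74.6 CPM in HF + AD mice without overlap (log2 fold change 1.49, SE 0.25, adjusted p = 0.00459), as in all 22 alternative fits. Krt84 was at 3.31 to 15.3 and 12.7 to 23.6 CPM (log2 fold change 1.15, SE 0.35, adjusted p = 0.0478), a call that held in 10 of 22 and without only AD mouse 5 or HF + AD mouse 3 among the mice. Of the cuticle keratins, Krt82 had a log2 fold change of 0.91 (adjusted p = 0.0534), and Krt32 of 0.0031 (adjusted p = 0.995), with levels of 175.1 to 359.6 CPM in AD mice and 162.1 to 348.6 CPM in HF + AD mice. Krt40 was counted in a single read of AD mouse 3 and was not tested.

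The keratin-associated proteins, which crosslink hair keratin filaments, were found as 53 entries, and 46 were tested. Of these, 10 were called higher and 0 lower (21 and 0 at an unadjusted p under 0.05, 17 and 0 with DESeq2, 16 and 0 with limma-trend), 43 had a log2 fold change above 0, and their median was 0.58. Krtap4-7 rose from 15.1 to 29.3 CPM in AD mice to 47.0 to 153.6 CPM in HF + AD mice (log2 fold change 2.18, adjusted p = 0.00135). Krtap10-4 rose from 0.931 to 8.14 CPM to 19.8 to 72.2 CPM (log2 fold change 2.98, adjusted p = 0.00321), and Krtap4-16 had a log2 fold change of 1.38 (adjusted p = 0.00492), all 3 without overlap. The count of 10 became 18 without AD mouse 5, the mouse with the highest hair shaft keratin sum of its group, and was between 7 and 18 without any 1 mouse. Members of such gene families resemble each other, and reads may have been split between copies.

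Among 6 other proteins of the shaft, 3 were higher. S100a3, a calcium-binding protein of the cuticle, had a log2 fold change of 1.32 (adjusted p = 0.00874), and Padi3, an enzyme that citrullinates it, of 0.78 (adjusted p = 0.0109). Gprc5d, an orphan receptor of hard keratin tissues, had 1.00 (adjusted p = 0.0137), and like Padi3 it did not overlap between the groups. Dsg4, Tgm3 and Hephl1 did not pass the test.

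Of 19 regulators of hair shaft formation, 3 were called higher and 0 lower, and the median log2 fold change of the list was 0.15. At an unadjusted p under 0.05, 6 were higher and 1 was lower, Bmpr1a (log2 fold change -0.43, adjusted p = 0.0723). DESeq2 called 3 higher and 1 lower, and limma-trend 3 and 0. With the replicate number as a block, 1 was called. Foxq1, a forkhead factor needed for normal hair structure, rose from 58.5 to 82.4 CPM in AD mice to 131.0 to 222.2 CPM in HF + AD mice without overlap (log2 fold change 1.30, SE 0.16, adjusted p = 0.00125), and Foxn1, a forkhead factor whose loss leaves mice nude, had a log2 fold change of 0.78 (adjusted p = 0.0132). Ovol1, a zinc finger factor of the differentiating follicle, had 0.62 (adjusted p = 0.0232) without overlap, and lost the call without AD mouse 2 (adjusted p = 0.0607). Hoxc13 and Lef1, whose binding forms were searched above, did not pass, with Hoxc13 at 60.7 to 154.7 CPM in AD mice and 139.3 to 178.6 CPM in HF + AD mice (adjusted p = 0.217) and Lef1 at 14.7 to 54.1 and 28.1 to 50.8 CPM (adjusted p = 0.939).

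Genes listed for other layers and cells did not all move in the same direction as the shaft genes. In whole skin, the values do not show whether reads of dividing or pigment cell genes came from the follicle. Of 9 tested genes of the inner root sheath and companion layer, the sleeve around the growing shaft, 3 keratins were called higher, Krt27 (log2 fold change 0.95, adjusted p = 0.00679), Krt26 (0.91, adjusted p = 0.0109) and Krt71 (0.74, adjusted p = 0.0120), and 0 lower, and Tchh, which encodes trichohyalin, was at 3210 to 4472 CPM in AD mice and 2970 to 5100 CPM in HF + AD mice (adjusted p = 0.990). Of 8 genes of dividing cells, 0 were called higher, and Top2a (-0.65), Ccnb1 (-0.54) and Birc5 (-0.50) were called lower. Leaving out any of AD mice 2, 3 and 4 or HF + AD mice 1, 2, 4 and 7 ended these 3 calls, and 1 was left when HF + AD mouse 3 was out. At an unadjusted p under 0.05, 4 were lower and 1 was higher, Plk1 (log2 fold change 0.62, adjusted p = 0.103). The list summed to 1080 to 1700 CPM in AD mice and 849.3 to 1198 CPM in HF + AD mice. Of 7 pigment cell genes, Dct (-0.68, adjusted p = 0.0177), Oca2 (-1.22) and Pmel (-0.46) were lower, and the list summed to 1838 to 2885 CPM in AD mice and 886.2 to 1937 CPM in HF + AD mice. Dct was called in all 22 alternative fits, and it was the 1 gene called here when any of AD mice 2, 4 and 5 or HF + AD mice 2 and 7 was left out.

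**Figure D4:**
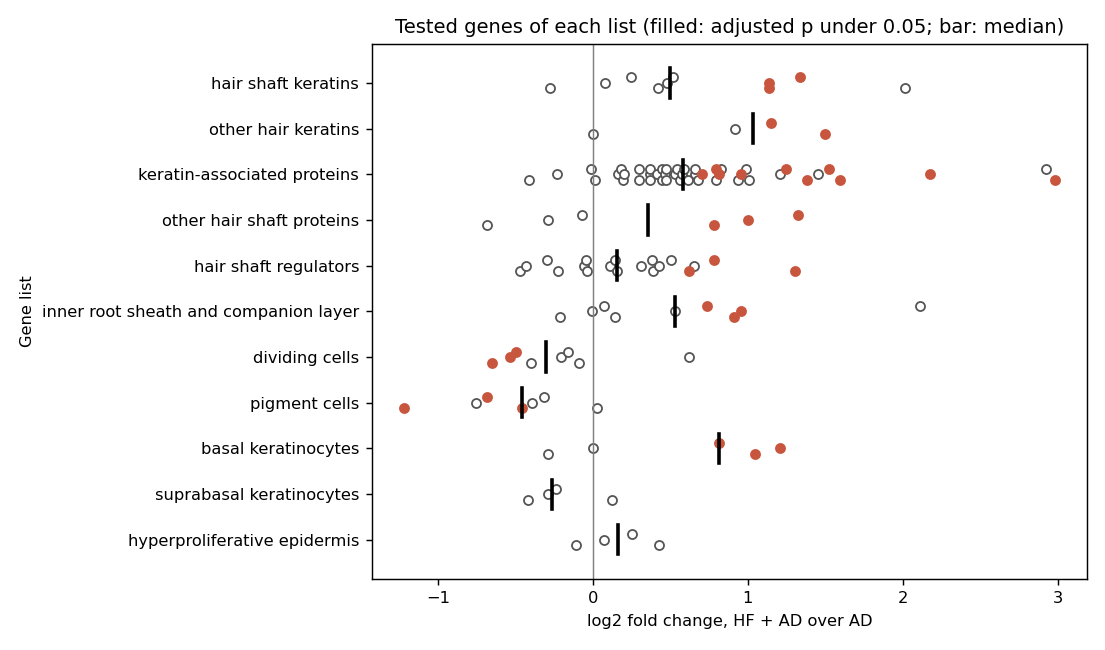
Log2 fold change of HF + AD over AD for each tested gene of 11 lists, with filled points for an adjusted p under 0.05 and a bar at the median of each list. Called genes lie to the right of 0 for the hair shaft, inner root sheath and basal keratinocyte lists and to the left for dividing cells and pigment cells.

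Some genes in the lists for other skin cells also differed between the groups. Of 5 basal keratinocyte genes, Krt5 (log2 fold change 0.81, adjusted p = 0.00679), Krt15 (1.21) and Krt14 (1.05) were called higher. Col17a1 (0.0010, adjusted p = 0.998) and Trp63 (-0.29, adjusted p = 0.331) were not called. The list, in which Krt5 had the most counts, summed to 3228 to 4940 CPM in AD mice and to 5842 to 10340 CPM in HF + AD mice, without overlap. The call of Krt14 was lost when AD mouse 2, 3 or 4 was out (adjusted p up to 0.0625). By edgeR, 0 of 4 suprabasal, 4 hyperproliferative, 6 fibroblast, 4 adipocyte and 5 immune cell genes tested were called, with 1 fibroblast and 1 immune cell gene higher at an unadjusted p under 0.05, 1 immune cell gene called by DESeq2 and 0 by limma-trend. Without AD mouse 1, 1 hyperproliferative and 2 fibroblast genes passed, and without AD mouse 2, 1 adipocyte gene. Of 6 sebocyte genes Awat1 was higher and Scd1 lower, of 6 muscle genes Acta1 was lower, and of 4 endothelial genes Kdr and Cdh5 were higher, of which 0 were left when HF + AD mouse 1 or 2 was out. The call of Acta1 was lost when any of AD mice 1, 2 and 4 or HF + AD mice 2, 4, 5 and 7 was out. The part of these shifts in the hair keratin values was not tested.

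Transcripts rich in G and C were more often called higher throughout the table. By the GC content of the longest protein-coding transcript, 6.91% of genes in the highest of 5 equal bins were called higher and 2.14% lower, against 2.60 and 7.75% in the lowest. Of the 9 members with a transcript in the annotation, 7 were in the highest bin (Krt31, Krt33b, Krt34, Krt35, Krt81, Krt83 and Krt86) and Krt33a and Krt36 in the next, in which 5.66% were called higher. The median log2 fold change of the highest bin was 0.18, and the part of GC content in the members' values was not tested.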

How the data were processed

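For each of 12 skin libraries the authors deposited raw counts by gene symbol, from reads of the QuantSeq 3′ mRNA kit. The labels name Bowtie2, bedtools and the mm10 build, and versions, counting settings and strand are not given in the sources used here. Counts were scaled by TMM and filtered with filterByExpr, and HF + AD was compared with AD by the quasi-likelihood test of edgeR 4.0.16 in R 4.3.3, with Benjamini–Hochberg adjustment over 14163 genes. Single genes were compared as log2(CPM + 1), a pseudocount of 1, by a two-sided exact permutation test in SciPy 1.17.1. Alternatives used limma 3.58.1, DESeq2 1.42.0, other scalings and filters, sums of near copies, the replicate number as a block and leaving out each mouse. Steps were tested on simulated data. The members, the other lists and the rule for named genes (the 10 members, the other hair keratins, the 3 genes of lowest adjusted p in each further list, the 10 genes most alike) were chosen with earlier results of these data known. Genes named beyond this rule (5430421N21Rik, Tchh, Hoxc13, Lef1, Bmpr1a, Dsg4, Tgm3, Hephl1, Plk1, Trp63, Col17a1) were chosen after their values were seen. Same-numbered mice did not deviate together (r between -0.082 and 0.039 over 5 pairs). These values cannot show that the numbers carry no pairing or batch.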

Additional observations from a re-analysis of the deposited data

Results flagged for a closer look

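Within groups, 2 hair shaft keratins had 1 mouse far from the rest by Dixon's ratio of the gap to the range, in 34 groups examined, where chance gives about 1 in 20. Krt33a in AD mouse 5 stood at 9.60 on the log2(CPM + 1) scale against 8.39 to 8.64 in the other AD mice (ratio 0.794). Krt33b in HF + AD mouse 7 stood at 8.33 against 7.11 to 7.64 (ratio 0.569). The single read of Krt40 in AD mouse 3 gave a ratio of 1.0 and is 1 count.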

How the results depend on the processing

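Krt31 and Krt34 passed the threshold in all 22 alternative fits. The number of hair shaft keratins called, 3, was between 2 and 4 in every alternative and between 2 and 4 without any 1 mouse, and Krt86 and Krt81 were the genes that moved in the latter. The count of genes called in the other lists, 35, was between 24 and 44 without any 1 mouse. With the replicate number as a block, 14 of the other lists' genes and 192 of all genes were called, against 1303. Because only the HF + AD group has mice numbered 6 and 7, this fit compares the groups without them. Of the hair shaft keratins, 2 remained, Krt31 and Krt34. While 0 of 5 AD mice correlated best with their own number, this cannot tell whether the numbers pair the samples. By this block the log2 fold change of Krt85 was -0.10 and that of Krt32 was -0.16. Krt85 ranged from -0.028 to 0.35, Krt33a from -0.41 to 0.047 and Krt32 from -0.11 to 0.18 without any 1 mouse, and Krt32 was at -0.0043 with DESeq2's Wald test, -0.0044 with DESeq2's size factors and -3.58e-05 with limma-trend. Single genes under p = 0.05 by the permutation test, 5, were between 4 and 7, and the ratio of the summed level, 1.43, was between 1.34 and 1.62 without any 1 mouse. All genes called came to 1945 with DESeq2's Wald test, 803 without AD mouse 2, and 686, 639 and 794 without HF + AD mouse 1, 2 and 4. Among the hair keratins, a count of 0 in at least 1 mouse was found for Krt83 and Krt40, and among the other lists for several genes with few reads, Dsg4 among them.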
